A study of Mus musculus with 16 samples.

Results

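The 36 genes described here encode the chaperones of 2 protein-folding compartments, out of 32285 genes in each deposited matrix. The first 18 act in the cytosol or, in the case of Hspd1, Hspe1 and Hspa9, in mitochondria, and include Hsf1, the transcription factor of the heat shock response. The other 18 act in the endoplasmic reticulum (ER) or, in the case of Xbp1, Atf4 and Ddit3, are transcription factors of the ER stress response. All 36 genes were present in the matrices and are accounted for below. The questions were whether each group of genes changed across a whole arm, that is all cells of 1 tissue and condition, or in 1 subset of cells, and whether both groups moved together.

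In the heat shock response, Hsf1 is held inactive by chaperones. When unfolded proteins occupy those chaperones, Hsf1 forms trimers and binds repeats of the letters GAA in alternating orientation, called heat shock elements. Its best known targets are Hspa1a and Hspa1b, the stress-inducible Hsp70 pair, the Hsp70 exchange factor Hsph1, and the Hsp40 co-chaperone Dnajb1. The ER response runs through the sensors Ire1, Perk and Atf6. Ire1 splices Xbp1 mRNA, Perk raises translation of Atf4 and through it Ddit3, and cleaved Atf6 enters the nucleus. Xbp1 and Atf6 act on ER stress elements in front of genes such as Hspa5 (BiP) and Hsp90b1 (Grp94). Plasma cells and plasmacytoid dendritic cells (pDC) are known for a large ER. In T cells both systems are also known to follow activation.

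The mice had a cholestatic liver injury from chow that held 0.1% of the porphyrinogenic compound DDC, and the study followed γδ T cells of the liver and the liver-draining lymph nodes (LN). The cells came from C57BL/6J mice of 6 to 12 weeks. The 16 samples formed 8 units, each with an RNA library and a library of antibody tags. In 5 units, γδ T cells sorted as CD45+ CD3e+ TCRβ- TCRγδ+ had been marked with a hashtag per arm and pooled, and 3 units were CITE-seq libraries of LN cells. D0 stands for no DDC. D5, D9 and D19 stand for days of DDC, and STOP for 18 days of DDC and 7 days of normal chow. D5-DT stands for Mgl2-DTR mice, in which the diphtheria toxin receptor is placed at the Mgl2 gene, given toxin on days -1 and 2 and DDC for 5 days. Liver D0, D5 and D9 formed 1 pool, liver D19 and STOP another, LN D0 and D5 another, LN D19 and STOP another, and the last held liver and LN of D5-DT. The D5-DT arms therefore differ from the D5 arms in genotype, toxin and pool, which cannot be told apart. The CITE-seq libraries were from D0, D5 and D19, 1 library a day, so that day and library cannot be told apart either. Its D5 library was called D6 in a second label, and the LN D19 pool carried 18 as well as 19. How many mice an arm pooled is not stated. Tissue was digested with Collagenase D before sorting.

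Each arm was 1 sample, so no comparison between conditions has a replicate or a p-value. Levels are unique molecular identifiers (UMIs) summed over the cells of an arm or subset and scaled to a common total of UMIs, the usual CPM. Intervals are 95% intervals of the UMI counts. They cover counting error only, and treat the UMIs of 1 arm as independent. A change is given as a log2 ratio of CPM with 10 CPM added. A gene was tested where it had 30 or more UMIs in both arms together and a mean of 20 CPM, and was called where it passed 1.5-fold. The ratio of summed levels of a group of genes is given with nothing added. Such a sum follows its most abundant members, so the counts and medians stand beside it.

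Cells needed 1000 RNA UMIs, at most 10% mitochondrial UMIs and, in the pools, a leading hashtag of 10 UMIs that exceeded the second by 3 times. The pools held 27774 γδ T-like cells, 423 to 8716 an arm, with 1780730 to 41058510 summed UMIs and a median of 2706 to 5313 UMIs a cell. The CITE-seq libraries held 6053 to 6698 cells with medians of 3249 to 4812 UMIs. The 5 T cell markers summed to 2534 to 6479 CPM in the 11 γδ T arms, those of B cells to 24.5 to 64.4 CPM and those of hepatocytes to 0 to 26.1 CPM. Markers of plasma cells summed to 11.2 to 148 CPM, of pDC to 49.8 to 170 CPM and of cDC2 to 71.3 to 676 CPM, and the part of such cells or of their RNA in the results was not tested. No 2 libraries shared more than 29 barcodes of cells. The subsets were named from fixed markers in clusters built without the 36 genes. They included Scart1 and Scart2 cells, the γδ T17 cells marked by Cd163l1 and 5830411N06Rik. The rest were naive cells (Ccr7, Lef1), type 1 cells (Ifng, Nkg7, Gzmb) and other cells that met no rule. Cycling cells and low-depth cells, a cluster led by hemoglobin genes, were kept apart from these subsets but counted among all γδ T-like cells. Low-depth cells had medians of 1336 UMIs and 7.51% mitochondrial UMIs in liver D5, and 1792.5 UMIs and 7.95% in liver D5-DT. Of the Scart2 clusters, cluster 10 had Hspa1b and Hspa1a among its 10 leading genes although both had been left out of the clustering. Sorted cells held too few Mgl2 UMIs (25 in 1971 liver cells of D5-DT, 12 in 3745 of D5) to check the depletion.

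The promoters of both groups differ in the letters they hold. RefSeq promoter windows (GRCm38.p6, 250 bases before to 50 after the start site) matched 29 of the 36 genes, 13 cytosolic and 16 ER. A window holding a pair of inverted heat shock repeats, GAANNTTC or TTCNNGAA on either strand, was found for 10 of 13 cytosolic and 0 of 16 ER genes, against 17% of 27025 genes. A triple, in which another repeat follows such a pair at the same spacing, was found for 4 of 13 (Hsph1, Hspd1, Hspe1 and Chordc1), against 0.662% of genes. The ER stress element, CCAAT followed by CCACG with 9 bases between them, was searched on both strands and found for 7 of 16 ER and 0 of 13 cytosolic genes, against 0.137% of genes. The shorter element, ATTGG and CCACG with 1 base between them, was found for 2 ER genes, Dnajb11 and Herpud1, against 0.0444% of genes. The letters TGACGTG were found for Hspa5 (2.22% of genes) and TTGCATCA for Herpud1 (1.03%). The stretches shown are those of the genes that carry the results below. Capitals mark the matched letters, each stretch reads along the gene's strand, and a match describes letters and not binding.
Hspa1a, chr17:34972233-34972280, minus strand, with a repeat pair: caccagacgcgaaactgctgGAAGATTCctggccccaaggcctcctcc
Hsph1, chr5:149636286-149636389, minus strand, with a pair and a triple: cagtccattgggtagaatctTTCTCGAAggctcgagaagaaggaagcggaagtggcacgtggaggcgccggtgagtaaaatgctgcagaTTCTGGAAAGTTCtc
Hspe1, chr1:55088039-55088096, plus strand, with overlapping triples: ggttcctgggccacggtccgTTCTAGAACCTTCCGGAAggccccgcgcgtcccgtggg
Chordc1, chr9:18292243-18292296, plus strand, with overlapping triples: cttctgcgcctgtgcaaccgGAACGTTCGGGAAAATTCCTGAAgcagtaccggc
Hsp90b1, chr10:86705513-86705676, minus strand, with ER stress elements in both orientations: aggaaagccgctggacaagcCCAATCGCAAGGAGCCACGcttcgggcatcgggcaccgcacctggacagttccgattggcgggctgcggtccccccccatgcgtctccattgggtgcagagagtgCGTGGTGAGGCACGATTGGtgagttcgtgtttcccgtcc
Hspa5, chr2:34771913-34772063, plus strand, with the letters TGACGTG and an ER stress element: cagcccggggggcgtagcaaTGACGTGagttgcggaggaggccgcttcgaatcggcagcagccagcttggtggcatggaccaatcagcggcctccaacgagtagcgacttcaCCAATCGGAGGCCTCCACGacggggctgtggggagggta
Calr, chr8:84847055-84847113, minus strand, with an ER stress element: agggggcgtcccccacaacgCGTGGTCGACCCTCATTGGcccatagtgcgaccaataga
Herpud1, chr8:94386297-94386407, plus strand, with the letters TTGCATCA and the shorter ER element: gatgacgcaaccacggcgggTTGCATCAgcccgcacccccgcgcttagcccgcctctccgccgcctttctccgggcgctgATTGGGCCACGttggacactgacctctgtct
The stretch printed for Hspa1a was identical, base for base, to that of Hspa1b at chr17:34959315-34959362. Hspe1 and Hspd1 share the printed region, read from opposite strands, because they start head to head. Reads of Hspa1a and Hspa1b, which are near-identical in their coding part, may have been split between them by the counting, so the pair is also given together.

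In liver γδ T cells, more of the 36 genes passed 1.5-fold after the diet was stopped than in any other comparison of γδ T arms. Hsp90b1, the ER Hsp90, was at 276 CPM in D19 and 1083 CPM in STOP. Hspa5, the ER Hsp70, was at 489 and 1211 CPM. Hspa8, the constitutive cytosolic Hsp70, was at 741 and 1393 CPM. Both arms came from 1 pool, with medians of 2706 and 3271 UMIs a cell. Of the 18 ER genes tested, 13 were higher in STOP and 0 lower, with a median log2 ratio of 1.05. Of the 16 cytosolic genes tested, 8 were higher and 0 lower, with a median of 0.59. Over all 5656 genes tested, 5.78% were higher and 3.48% lower, and the median was -0.01.

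The ER genes that rose from D19 to STOP covered several steps of folding. Among the disulfide isomerases, Pdia4 rose by 1.80 (50.04 to 199.8 CPM), Pdia6 by 1.59 (93.5 to 301 CPM) and Pdia3 by 1.14 (290 to 651 CPM). Among the lectin chaperones that hold glycoproteins, Calr rose by 1.55 (198 to 601 CPM) and Canx by 0.74 (179 to 305 CPM). Helpers of Hspa5 rose too. These were Sdf2l1 at 1.65 (41.3 to 151 CPM), the exchange factor Hyou1 at 0.96 (19.4 to 47.3 CPM) and the ER J protein Dnajb11 at 0.87 (81.1 to 157 CPM). The secreted ER stress proteins Creld2 (15.9 to 59.9 CPM) and Manf (121 to 308 CPM) rose by 1.43 and 1.28. Herpud1, which acts in ER-associated degradation, rose by 0.76 (66.8 to 120 CPM). The transcription factors stood apart from these. Xbp1 had 69.7 and 87.1 CPM, Atf4 112 and 124 CPM, and Ddit3 29.2 and 27.0 CPM, none past 1.5-fold. The J proteins Dnajc3 (167 and 255 CPM) and Dnajb9 (53.7 and 59.3 CPM) did not pass either. Xbp1 UMIs do not tell the spliced from the unspliced mRNA. The 7 genes with the ER stress element had a median of 1.43, and the 9 with a promoter window and without it 0.76, as a description. The 9 held the transcription factors Xbp1, Atf4 and Ddit3, and Dnajb11 and Herpud1 with the shorter element. The rest of them were Pdia4 (1.80), Sdf2l1 (1.65), Pdia3 (1.14) and Dnajb9, which did not pass. The medians therefore do not compare chaperones alone.

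The cytosolic genes that rose in liver STOP were led by the inducible ones. Hspa1a went from 23.5 to 132 CPM, Hspa1b from 36.1 to 191 CPM and Hsph1 from 15.3 to 87.5 CPM, which were rises of 2.09, 2.13 and 1.95. The Hsp90 co-chaperones Stip1 (43.4 to 92.2 CPM) and Chordc1 (46.8 to 95.1 CPM) rose by 0.94 and 0.89. Hspa8 rose by 0.90, the J protein Dnaja1 by 0.75 (436 to 742 CPM) and the inducible Hsp90, Hsp90aa1, by 0.64 (272 to 428 CPM). Just under the threshold were Hsp90ab1 at 0.54 (1231 and 1795 CPM), the mitochondrial Hspe1 at 0.53 (208 and 306 CPM) and Dnajb1 at 0.51 (60.6 and 90.6 CPM). Hsf1 was at 31.6 and 26.1 CPM, Hspa4 at 142 and 136 CPM and the mitochondrial Hspa9 at 92.2 and 66.3 CPM. The mitochondrial Hspd1, at 133 CPM in D19, did not pass either. Bag3 (7.43 and 6.81 CPM) and the small heat shock protein Hspb1 (0.555 and 1.56 CPM) were too low to be tested.

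**Figure D1:**
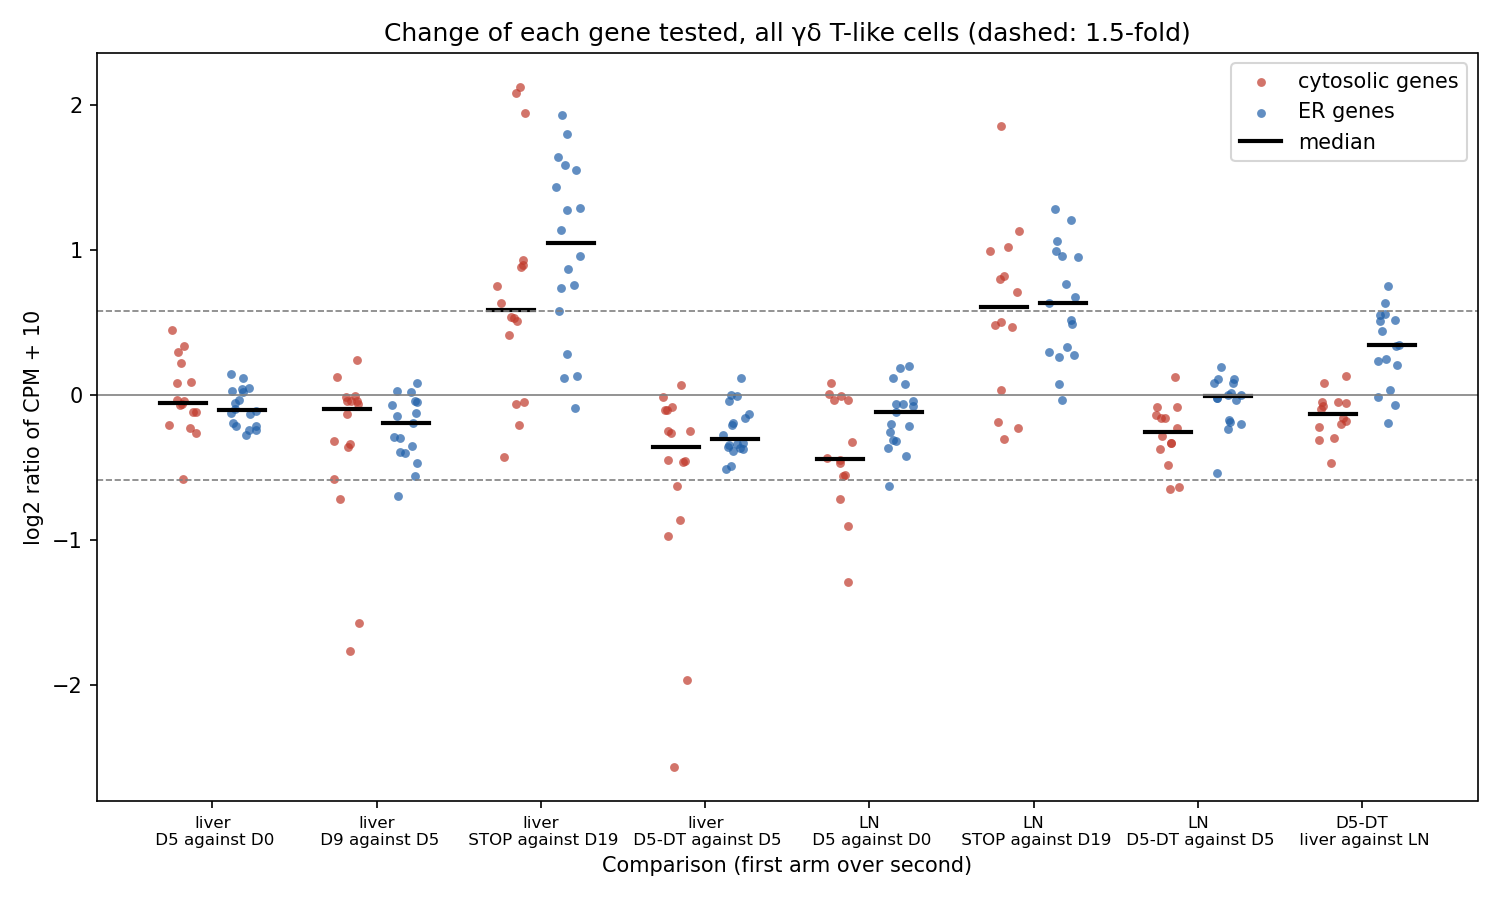
Each point is 1 of the 36 genes where tested, in all γδ T-like cells, at its log2 ratio of CPM with 10 CPM added (vertical axis) in 8 comparisons (horizontal axis). Red marks cytosolic genes, blue ER genes, black bars medians and dashed lines 1.5-fold. In liver STOP against D19 the ER median was 1.05 and the cytosolic median 0.59, and in the D5-DT comparison of liver only cytosolic genes passed the lower line.

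Both rises were found in each liver subset that had 50 cells in both arms, but not at 1 size. The summed ER level went from 2571 to 6344 CPM in Scart1 cells and up by 1.37 on the log2 scale in Scart2 cells. In type 1 cells it rose by 0.66 to 2951 CPM. The rise was 0.64 larger in Scart1 than in type 1 cells (interval of the difference 0.55 to 0.73), and the Scart1 and Scart2 values were 0.07 apart (interval of Scart1 minus Scart2 -0.13 to -0.01). The summed cytosolic level rose by 0.79 in Scart1 and in Scart2 cells, with a difference of 0.00 (interval -0.06 to 0.05), and by 0.35 in type 1 cells. The Scart1 rise was larger than the type 1 rise by 0.44 (interval 0.38 to 0.51). The type 1 arm of STOP held 109 cells. Past 1.5-fold, 13 of 18 ER genes were higher in Scart1, 14 of 18 in Scart2, 8 of 16 in other and 7 of 17 in type 1 cells, against 5.28%, 6.57%, 7.93% and 10.5% of all genes. Of the cytosolic genes, 10 of 16, 11 of 16, 6 of 15 and 7 of 16 were higher in the same order. Single genes followed this. Hsp90b1 went from 313 to 1237 CPM in Scart1, 239 to 898 in Scart2 and 196 to 456 in type 1 cells. Hspa8 reached 1383, 1418 and 1303 CPM in STOP, starting from 640, 702 and 1043 CPM. The other cells lay 70.7% in D19 and 60.8% in STOP in cluster 13, which is led by hemoglobin genes. Their medians were 1332 and 1350 UMIs a cell, with 6.26% and 6.67% mitochondrial UMIs, against 2708 and 3347 UMIs in Scart1 cells.

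Scart1 was held by different clusters in both arms, with 61.9% of its D19 cells in cluster 3 and 63.0% of its STOP cells in cluster 2. The sums were therefore also taken within clusters. In every cluster with 50 cells of each arm both groups of genes were higher in STOP. The ER ratio ran from 0.65 in cluster 8, type 1, to 1.53 in cluster 3, and the cytosolic ratio from 0.16 in cluster 8 to 1.02 in cluster 6. With each subset given equal weight in both arms, the sums of all cells rose by 1.08 for the ER and 0.67 for the cytosolic genes, in place of 1.29 and 0.71. The 4 subsets weighted included the other cells.

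**Figure D2:**
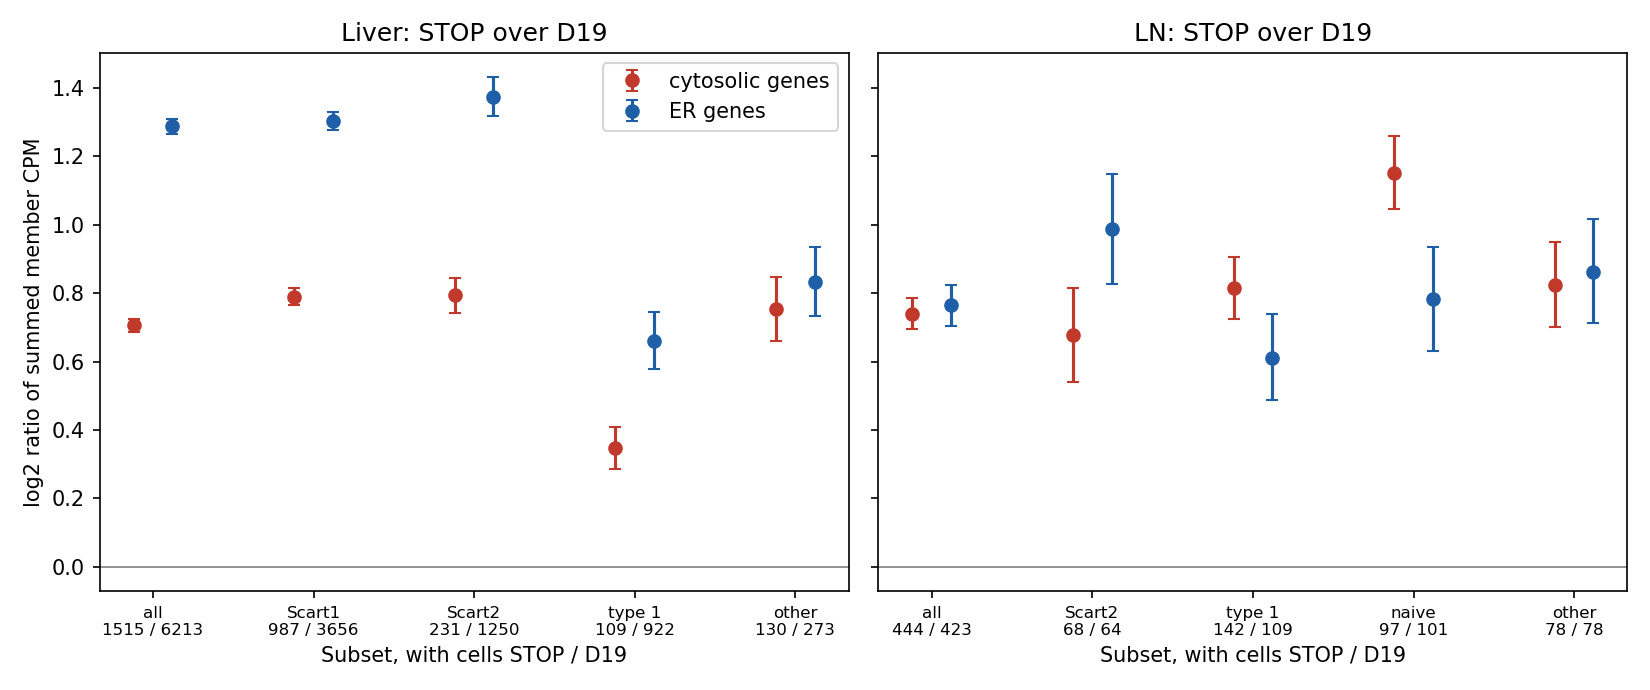
Log2 ratio of summed CPM, STOP over D19 (vertical axis), for the cytosolic (red) and ER (blue) genes in all γδ T-like cells and in each subset with 50 cells in both arms (horizontal axis, with cells of STOP and D19), in liver (left) and LN (right). Bars are 95% counting intervals. All points lie above 0, and in liver the ER points of Scart1 (1.30) and Scart2 (1.37) lie above that of type 1 (0.66).

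In the LN arms of the same comparison both groups of genes were higher in STOP as well. Here γδ T-like cells were only 54.1% of kept cells in D19 and 57.6% in STOP. Stromal cells were 22.5% in D19 and 3.24% in STOP, and mature dendritic cells 5.88% and 23.0%. The part of such cells or of their RNA in these values was not tested. Hsph1 had 19.7 CPM in D19 and 97.3 in STOP, Hspa8 597 and 1320 CPM, Hspa5 320 and 632 CPM, and Hsp90b1 204 and 484 CPM. Of the 14 cytosolic genes tested 7 were higher, of the 17 ER genes 9, and of either 0 were lower, against 4.38% of all genes higher and 4.68% lower. The cytosolic median was 0.61 and the ER median 0.64. Beside Hsph1 (1.86) and Hspa8 (1.13), the cytosolic genes were Dnaja1 (1.03), Stip1 (0.996), Chordc1 (0.82), Hspe1 (0.80) and Hsp90aa1 (0.72). The ER genes were Sdf2l1 (1.28), Hsp90b1 (1.21), Pdia4 (1.06), Calr (0.99), Hspa5 and Pdia6 (0.96 each), Manf (0.77), Hyou1 (0.68) and Pdia3 (0.64). Hspa1a (0.562 and 10.9 CPM, 1 and 26 UMIs) and Hspa1b (2.25 and 25.6 CPM, 4 and 61 UMIs) were too low for the test. Xbp1 (42.7 and 55.0 CPM) and Ddit3 (38.8 and 41.5 CPM) did not pass.

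Among LN subsets the order was another one for each group of genes. The cytosolic sum rose most in naive cells, by 1.15, and by 0.82 in type 1 and 0.68 in Scart2 cells, with naive minus type 1 at 0.34 (interval 0.20 to 0.48). The ER sum rose by 0.99 in Scart2, 0.78 in naive and 0.61 in type 1 cells, with Scart2 minus type 1 at 0.37 (interval 0.17 to 0.58). Scart2 had only 68 and 64 cells here and the naive subset 97 and 101, and counts of single genes are not given for them.

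Other genes measured with these moved less in number. Of 22 other cytosolic chaperone genes tested in liver STOP, 2 rose (Fkbp4 by 1.24 and St13 by 0.89), and in LN 4 of 21. Of 19 other ER genes, 3 rose in liver (Fkbp2 by 1.15, Ostc by 0.64 and Ero1l by 0.63) and 1 of 18 in LN. Of the targets of Atf4, 0 of 3 passed in liver and 0 of 4 in LN. The cold-inducible RNA-binding protein genes moved the other way. The sum of Cirbp and Rbm3 went from 1560 to 571 CPM in liver and from 1312 to 384 CPM in LN, lower in STOP in each subset (log2 -1.59 to -1.45 in liver, -1.79 to -1.56 in LN). Of 11 immediate early genes, which rise during cell handling as well as activation, Jun rose by 0.92 and Zfp36 by 0.59 in liver, and Btg2 fell by 0.79 and Egr1 by 0.70. In LN Egr1 rose by 0.88 and Jun by 0.64, and none fell past the threshold. Their sums went from 8445 to 9147 CPM in liver and from 5911 to 6596 CPM in LN. The part of cell handling in the chaperone values was not tested.

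**Figure D3:**
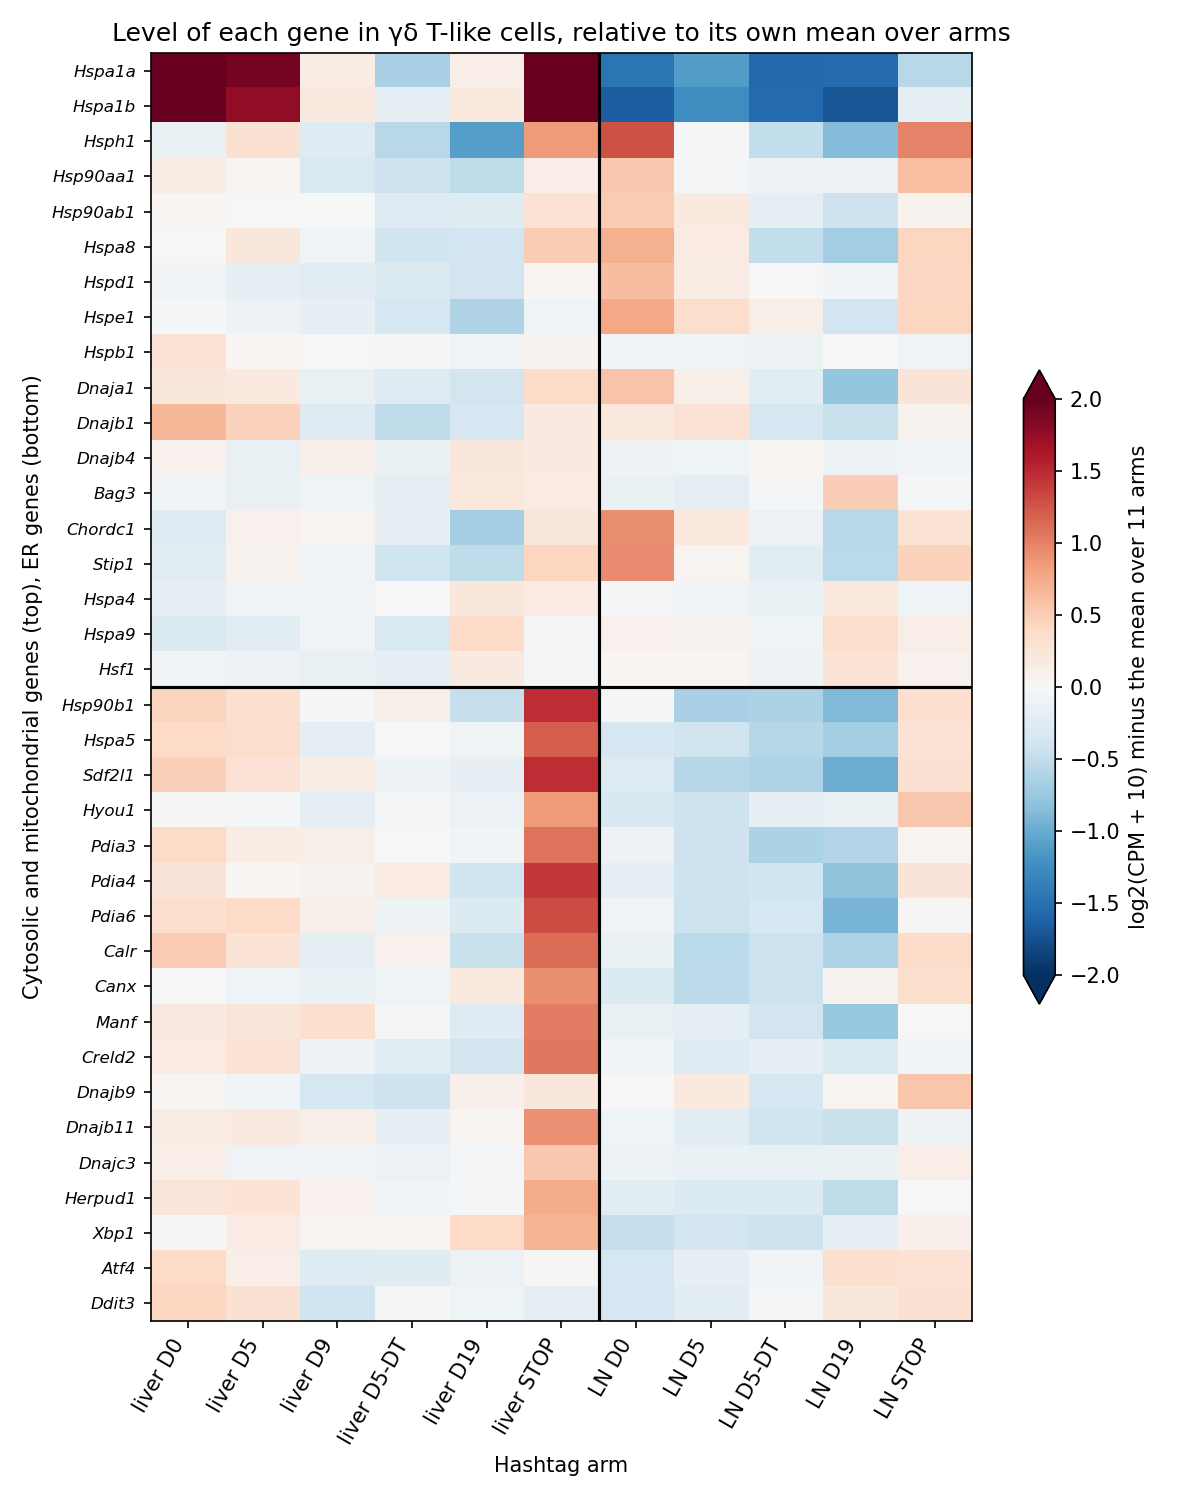
Heat map of the 36 genes (rows, cytosolic above and ER below the line) in the 11 arms of γδ T-like cells (columns, liver left and LN right). Colour is log2 of CPM with 10 added minus the gene's own mean over the arms, clipped at 2 in either direction. The liver STOP column is red for most ER genes, while Hspa1a and Hspa1b are red in liver D0, D5 and STOP and blue in the LN.

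From D0 to D5 the liver sums over all cells differed little, and the values moved with the subset. In all γδ T-like cells 0 of 16 cytosolic and 0 of 18 ER genes passed from D0 to D5, where 1.97% of all genes passed in either direction. The lowest and highest ratios were those of Hspa1a (161 and 105 CPM, -0.57) and Hsph1 (39.2 and 57.1 CPM, 0.45). Hspa1b was at 154 and 127 CPM, Hsp90aa1 at 435 and 402 CPM and Hspa8 at 975 and 1140 CPM. Hspa5 was at 679 and 663 CPM, Hsp90b1 at 524 and 481 CPM, Sdf2l1 at 70.4 and 60.4 CPM, Xbp1 at 51.3 and 58.0 CPM and Ddit3 at 46.2 and 41.5 CPM, all inside the threshold. The cytosolic sums were 4892 and 4896 CPM, and the ER sums 3345 and 3086 CPM. By subset the cytosolic sum changed by -0.45 in Scart2 cells, of which D0 had 50. The median over their cytosolic genes was -0.28. Cluster 10, with Hspa1b and Hspa1a among its leading genes, held 42% of Scart2 cells at D0 and 31.7% at D5. Thinned to the same depth, 12 of 50 Scart2 cells had a UMI of either gene at D0, and 52 of 545 at D5. The part of this pair and of the cluster shift in the Scart2 sum was not tested. The cytosolic sum changed by 0.04 in type 1 cells and by 0.13 in Scart1 cells. In Scart1 cells, however, 6 of 18 ER genes were lower at D5, with 5.12% of all genes lower, and the ER sum fell by 0.54. The clusters that held Scart1 shifted between these arms, with cluster 12 going from 36.6% to 4.61% and cluster 6 from 16.3% to 33.3% of its cells. Within cluster 2, with 58 cells at D0, 3 of 16 ER genes were lower and the ER sum fell by 0.44, where 14.3% of all genes passed in either direction. The ER sum was 0.45 lower in Scart2 cells and 0.16 higher in type 1 cells. Scart1 minus type 1 was -0.70 (interval -0.78 to -0.62). Hsp90b1 was at 898 and 531 CPM in Scart1 cells of D0 and D5 and at 418 and 475 CPM in type 1 cells. Sdf2l1 was at 143 and 71.05 CPM in Scart1 and at 52.3 and 60.5 CPM in type 1 cells.

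From D5 to D9 the liver ER sum fell from 3086 to 2539 CPM and the cytosolic sum from 4896 to 4178 CPM. The cytosolic genes past the threshold were Hspa1a (105 to 23.8 CPM, -1.76), Hspa1b (127 to 36.1 CPM, -1.57) and Dnajb1 (112 to 64.6 CPM, -0.71), and the ER gene was Ddit3 (41.5 to 21.8 CPM, -0.70), with 4.17% of all genes lower. Hsph1 (57.1 to 35.0 CPM, -0.58) and Hspa5 (663 to 448 CPM, -0.55) stayed just inside the threshold. Hsp90aa1 (402 to 312 CPM, -0.35), Hspa8 (1140 to 913 CPM, -0.32), Hsp90b1 (481 to 376 CPM, -0.35), Sdf2l1 (60.4 to 53.7 CPM, -0.15) and Xbp1 (58.0 to 52.6 CPM, -0.12) did not pass. In type 1 cells 5 of 17 ER genes were lower, against 3.79% of all genes. These cells lay 69.1% in cluster 8 at D5 and 70.5% in cluster 1 at D9. Within cluster 8, with 65 cells at D9, 7 of 18 ER genes were lower (sum -0.59) where 8.61% of all genes passed in either direction, and within cluster 1, 0 of 16 (sum -0.26) where 3.71% did. The ER sum changed by -0.60 in type 1, -0.36 in Scart1 and 0.08 in Scart2 cells. Scart1 minus Scart2 was -0.45 (interval -0.50 to -0.39), so that the ER change of this step differed between both γδ T17 subsets beyond counting error. Hspa5 was at 676 and 393 CPM in Scart1 and at 584 and 597 CPM in Scart2 cells. The cytosolic sums changed by -0.36 to 0.00 over the 5 subsets.

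In the LN, D5 was lower than D0 for the cytosolic sum in each subset. Hsph1 was at 120 and 43.4 CPM, Stip1 at 136 and 68.2 CPM, and Chordc1 at 161 and 94.3 CPM. These 3 of 14 cytosolic genes fell, by 1.29, 0.90 and 0.72, against 0.321% of all genes lower. Hspa8 (1603 and 1091 CPM, -0.55) and Hsp90aa1 (570 and 385 CPM, -0.56) stayed just inside the threshold. Hspa1a (1.17 and 4.09 CPM) and Hspa1b (2.83 and 6.99 CPM) were too low for the test. Of 17 ER genes 1 fell, Hsp90b1, by 0.63 (378 to 241 CPM). Hspa5 (409 and 389 CPM), Sdf2l1 (38.0 and 28.6 CPM), Xbp1 (33.8 and 36.2 CPM) and Ddit3 (23.3 and 26.2 CPM) did not pass. The cytosolic sum went from 6714 to 4939 CPM and changed by -0.47 in type 1, -0.41 in naive and -0.44 in other cells. The B cells that had passed the sort gave -0.55. The ER sum changed by -0.28 to -0.09 over the 3 subsets. Cirbp and Rbm3 together rose from 466 to 973 CPM and 7 of 11 immediate early genes rose, and the part of either in this result was not tested.

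In D5-DT liver the inducible cytosolic genes were lower than in D5, and no ER gene passed the threshold in either tissue when all cells were summed. In liver Hspa1a was at 105 CPM in D5 and 9.43 CPM in D5-DT, Hspa1b at 127 and 25.1 CPM, Dnajb1 at 112 and 52.4 CPM, Hsph1 at 57.1 and 27.0 CPM, and Hspa8 at 1140 and 737 CPM. These 5 of 16 cytosolic genes passed, with ratios of -2.56, -1.96, -0.97, -0.86 and -0.62, and 0 of 18 ER genes did, against 0.686% of all genes lower. Hspa5 (663 and 512 CPM) and Hsp90b1 (481 and 415 CPM) had ratios of -0.37 and -0.21, and Hsp90aa1 (402 and 291 CPM) -0.45. Sdf2l1 (60.4 and 44.0 CPM), Xbp1 (58.0 and 52.2 CPM) and Ddit3 (41.5 and 31.1 CPM) did not pass either. The medians were -0.35 for the cytosolic and -0.30 for the ER genes, beside 0.05 for all genes. The ER sum changed by -0.50 in type 1 to -0.05 in Scart2 cells, and within cluster 8, type 1, 7 of 17 ER genes were lower (sum -0.60), where 3.84% of all genes passed in either direction. Within cluster 1, the other type 1 cluster, 0 of 16 ER genes passed (sum -0.14), and the share of type 1 cells in cluster 8 was 69.1% in D5 and 49.5% in D5-DT. In the LN 2 of 14 cytosolic genes passed, Hspa8 (1091 and 693 CPM, -0.65) and Dnajb1 (99.2 and 60.4 CPM, -0.63), and 0 of 16 ER genes, against 0.769% lower. The ratio was -0.48 for Hsph1, -0.08 for Hsp90aa1, -0.17 for Hspa5, 0.01 for Hsp90b1, -0.03 for Sdf2l1, -0.02 for Xbp1 and 0.19 for Ddit3 there, and Hspa1a (4.09 and 0.264 CPM) and Hspa1b (6.99 and 3.69 CPM) were not tested. The cytosolic sum was lower in D5-DT in each of 5 liver subsets (-0.58 to -0.28) and 3 LN subsets (-0.42 to -0.23), without the low-depth cells. Those cells changed by -0.72 in liver (184 cells in D5-DT and 105 in D5). In LN they changed by -0.04 (98 and 60 cells, interval -0.25 to 0.18). They were 9.34% of kept cells in D5-DT liver and 2.80% in D5 liver, and 9.23% and 0.637% in LN. Their part in the values of all cells was not tested. The limit of 10% mitochondrial UMIs kept 3354 of 4076 barcodes in the D5-DT pool. It kept 8028 of 8349 in the pool with liver D5 and 12323 of 12487 in that with LN D5. The part of this difference in the values was not tested either. Of the 5 liver subsets the lowest value was that of the other cells. They lay 12.2% in D5 and 53.7% in D5-DT in cluster 13, led by hemoglobin genes and with a median of 1351 UMIs a cell. The cytosolic sum changed by -0.46 within their cluster 7 and by -0.78 within cluster 13. Cirbp and Rbm3 together were at 927 CPM in D5 and 930 CPM in D5-DT liver, a log2 ratio of 0.00. Of 11 immediate early genes, which also respond to tissue handling, 2 were lower in each tissue, Jun (738 and 374 CPM, -0.96) and Fos (-0.79) in liver and Fosb (-1.42) and Fos (-0.59) in LN. The part of handling in the chaperone values was not tested. Free RNA of the D5-DT pool, in barcodes of 10 to 100 UMIs, held no Hspa1a or Hspa1b UMI in 30574, and that of the pool with liver D5 held 90.3 and 91.1 CPM. In 30574 UMIs a floor of 3 counts lies above these 2 levels, so the missing UMIs do not show a difference in free RNA. The part of free RNA in the Hspa1a and Hspa1b values was not tested.

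Within the D5-DT pool, where both tissues were captured together, few genes of either group passed. Hsp90b1 was at 415 CPM in liver and 242 CPM in LN (0.75), and Pdia3 at 300 and 190 CPM (0.63). These were 2 of 16 ER genes, with 6.94% of all genes higher in liver, and 0 of 14 cytosolic genes passed. Hspa5 (512 and 345 CPM, 0.56), Sdf2l1 (44.0 and 27.7 CPM, 0.52) and Xbp1 (52.2 and 35.6 CPM, 0.45) stayed inside the threshold, as did Hspa8 (737 and 693 CPM), Hsp90aa1 (291 and 363 CPM), Hsph1 (27.0 and 28.2 CPM) and Ddit3 (31.1 and 31.4 CPM). The ER share is close to that of all genes, and with equal weight for each subset 0 ER genes passed. The ER sums were 2586 and 1890 CPM, and the cytosolic sums 3579 and 3818 CPM. Hspa1a (9.43 and 0.264 CPM) and Hspa1b (25.1 and 3.69 CPM) were not tested. By subset, the ER sum was 0.49 higher in liver for type 1 and 0.08 for naive cells. Of the type 1 cells, 49.5% lay in cluster 8 in liver and 0.833% in LN, and within cluster 1, which both tissues shared, the ER ratio was 0.42.

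Taken as levels in place of changes, the ER genes spread further over the γδ T subsets than the cytosolic genes in the liver arms. In liver D0 the summed ER level ran from 2054 CPM in naive to 4583 CPM in Scart1 cells, which is 2.23-fold, and the cytosolic level from 4213 CPM in Scart1 to 5609 CPM in Scart2 cells, 1.33-fold. In liver D19 the folds were 1.97 and 1.29. In liver STOP, with 3 subsets, they were 2.15 and 1.11. In LN D5 they were 1.83, with naive lowest and Scart1 highest, and 1.12. These folds are over the named subsets with 50 or more cells. In LN D0 and in the LN of D5-DT, with naive and type 1 cells only, both folds were between 1.02 and 1.07. The lowest ER level was that of naive cells in each of the 6 liver arms, among them STOP, where the 32 naive cells had 1937 CPM and are not in the fold, and of these 4 named subsets Scart1 was highest in D0, D19, STOP and D5-DT, type 1 in D5 and Scart2 in D9. The other cells, not part of these folds, were above Scart1 in D19 (3037 against 2571 CPM, at medians of 1332 and 2708 UMIs a cell). In STOP and D5-DT they were below Scart1 in summed CPM and above it when each cell was thinned to the same depth, and in D5 and D9 they were likewise above the highest named subset in thinned cells.

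**Figure D4:**
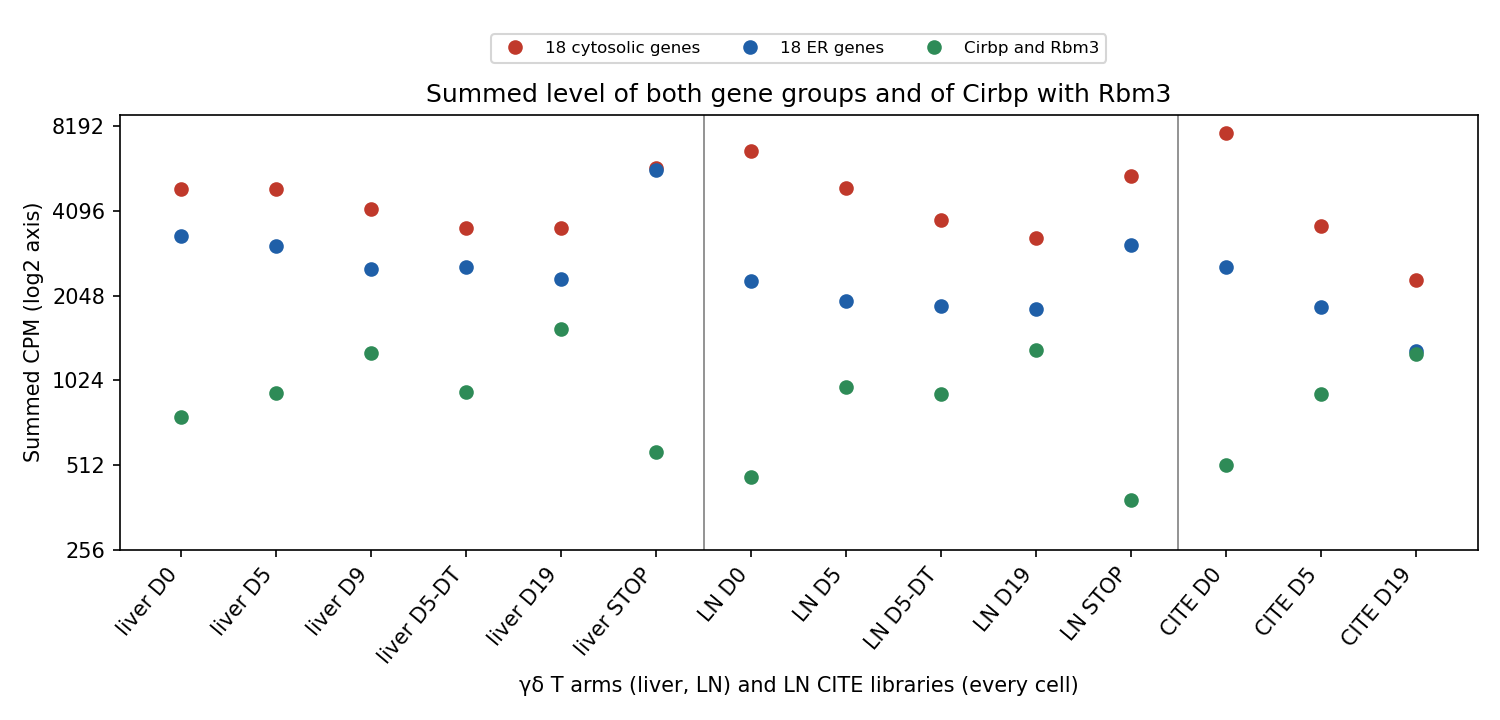
Summed CPM (log2 axis) of the 18 cytosolic genes (red), the 18 ER genes (blue) and the pair Cirbp and Rbm3 (green) in 6 liver and 5 LN arms of γδ T-like cells and in every cell of the 3 CITE-seq libraries (horizontal axis). Each point is 1 arm or library. The ER level was highest in liver STOP at 5746 CPM, and the cytosolic level was highest in the D0 library at 7756 CPM.

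The CITE-seq libraries of the LN gave the same genes across lineages. They were B cells, CD4 T, CD8 T and regulatory T cells (Treg), type 17 T cells, NK cells, mature dendritic cells (DC), pDC and, at D0 and D19, type 1 conventional DC (cDC1). In every cell together Hspa8 was at 1730, 833 and 438 CPM at D0, D5 and D19, Hsp90aa1 at 629, 313 and 162 CPM, and Hsph1 at 78.0, 22.6 and 4.87 CPM. Hspa1a was at 453, 41.2 and 2.36 CPM and Hspa1b at 352, 29.996 and 1.64 CPM. Hspa5 was at 463, 322 and 190 CPM, Hsp90b1 at 371, 245 and 151 CPM, and Sdf2l1 at 70.7, 36.5 and 27.0 CPM. Ddit3 was at 57.4, 35.5 and 32.1 CPM. Xbp1 was at 58.5, 48.2 and 48.3 CPM. Hspa4 (77.6, 87.4 and 59.5 CPM) and Hspa9 (54.1, 54.9 and 33.0 CPM) did not fall from D0 to D5. Hspa8, Hsp90aa1, Hsph1, Hspa1a and Hspa1b were thus highest in the D0 library and lowest in the D19 library, which does not hold for every cytosolic gene, and the levels of Xbp1 were close to each other.

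At D5 the cytosolic sum was lower than at D0 in each of 8 lineages, with most but not all of its genes, and few ER genes passed. Of 122 pairs of a cytosolic gene and a lineage tested, 84 were lower and 0 higher. Of 130 pairs with an ER gene, 18 were lower and 0 higher. Over all genes in these 8 lineages 3.15% of such pairs were lower and 4.62% higher. Hspa1a, Hspa1b, Hsph1, Hsp90aa1, Hsp90ab1, Hspa8, Hspe1 and Dnajb1 were lower in 8 of 8 lineages, and Hspd1 in 5 of 8. Hspa4 (median ratio 0.25) and Hspa9 (0.02) passed in 0 of 8, Dnajb4 in 0 of 7 and Hsf1 in 0 of 3 lineages. The cytosolic sums changed by -1.34 in pDC to -0.80 in CD8 T cells. The ER sums changed by -0.44 in NK cells to -0.17 in pDC. Among the ER genes, Sdf2l1 was lower in 4 of 7 lineages (median -0.63), Hsp90b1, Pdia6, Dnajb9 and Atf4 in 2 of 8, Pdia3 in 1 and Hspa5 in 0. Ddit3, which is not a chaperone, was lower in 5. Xbp1 passed in 0 of 7.

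At D19 the ER genes were lower too, with mature DC changing least in this group. Of 134 cytosolic pairs 113 were lower, and of 145 ER pairs 81, with 0 higher in either, against 11.1% lower and 6.58% higher over all genes in 9 lineages. The median of all genes was -0.14 in every cell, and the ratios here include that shift. The cytosolic sums changed by -2.06 in mature DC to -1.29 in CD8 T cells, and the ER sums by -1.20 in NK cells to -0.39 in mature DC. By these sums mature DC had the largest cytosolic and the smallest ER change of the 9 lineages. By medians it had the smallest ER change too (-0.37), but the largest cytosolic change was that of B cells (-1.73), with mature DC at -1.42. Calr and Hspa5 were lower in 9 of 9 lineages, Pdia6 in 8, Hsp90b1 and Pdia3 in 7, Canx in 2 and Xbp1 in 1 of 8. Sdf2l1 was lower in 6 of 7 and Ddit3 in 3 of 9. Hspa1a, Hspa1b, Hsph1, Hsp90aa1 and Hspa8 were lower in 9 of 9. Hspd1 was lower in 8 of 9 lineages, and Hspa4, Hspa9 and Dnajb4 in 1, 3 and 2. Of the other cytosolic chaperone genes, 13 of 20 were lower in every cell, led by Fkbp4 (86.2 to 19.6 CPM, -1.70). Of the other ER genes, 4 of 19 were lower and 2 higher.

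Here too Cirbp and Rbm3 moved against the chaperones. Their sum rose in each lineage, by 0.64 to 1.11 at D5 and 1.19 to 1.66 at D19. The immediate early genes summed to 7794, 4706 and 4263 CPM at D0, D5 and D19, with 6 of 11 lower at either day. The median share of mitochondrial UMIs was 2.04%, 3.44% and 3.51% at D0, D5 and D19. The part of these measures in the chaperone values was not tested.

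**Figure D5:**
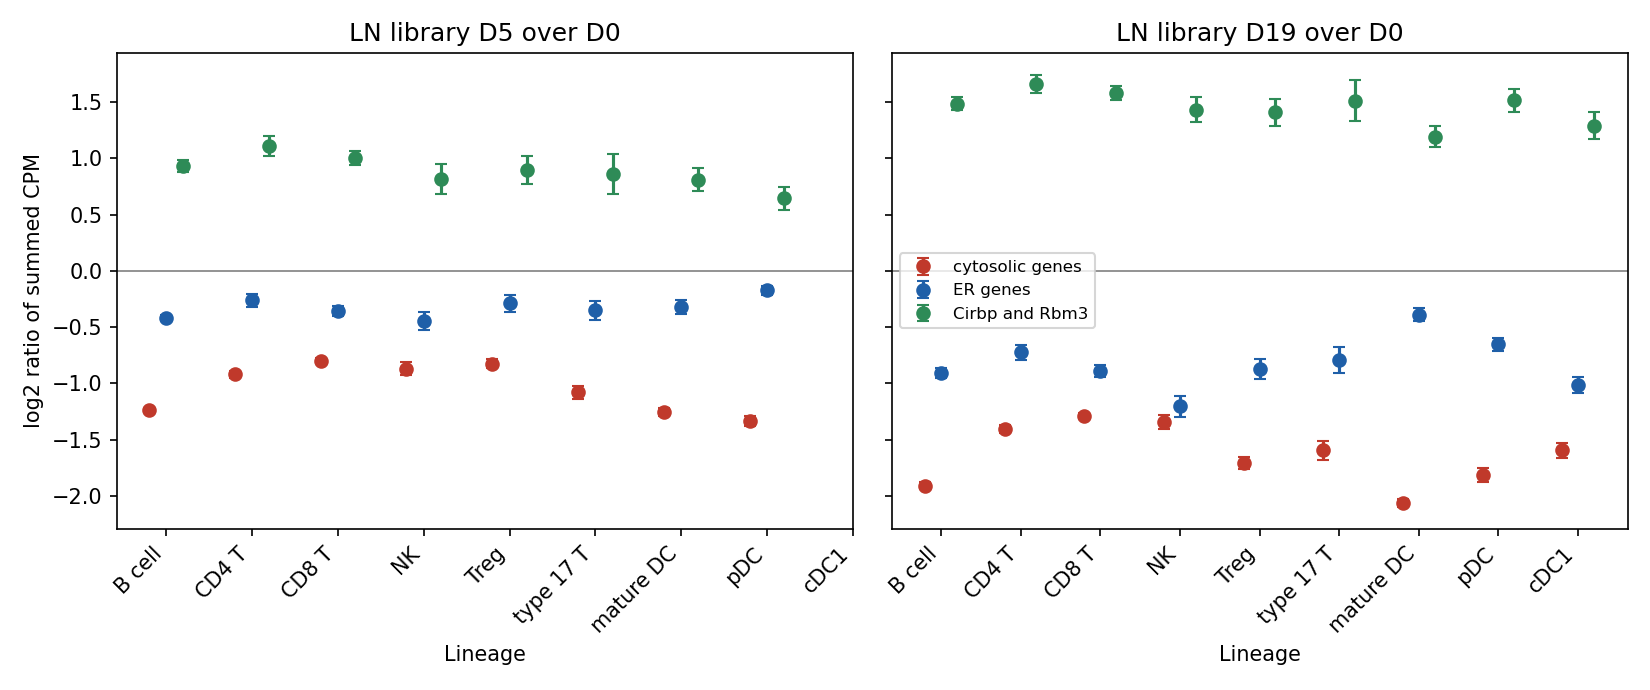
Log2 ratio of summed CPM against D0 (vertical axis) for the cytosolic (red) and ER (blue) genes and for Cirbp with Rbm3 (green) in 8 lineages at D5 (left) and 9 at D19 (right). Bars are 95% counting intervals, and cDC1 is missing at D5, where it had under 50 cells. Red lies below blue in every lineage, and green above 0 in all of them.

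Between lineages of 1 library the ER level spread further than the cytosolic level, over the 8 or 9 lineages compared, each with 50 or more cells. At D0 the ER sum ran from 1487 CPM in CD4 T cells to 5309 CPM in cDC1, 3.57-fold, and the cytosolic sum from 6811 CPM in CD4 T cells to 10484 CPM in Treg, 1.54-fold. The ER folds at D5 and D19 were 3.76 and 3.90, both from CD8 T cells to pDC, and the cytosolic folds 1.91 and 1.82, both from mature DC to Treg. Thinned to 1 depth, cells with no Hspa1a or Hspa1b UMI had 2766 CPM of the other cytosolic genes in Treg at D19 and 2807 CPM in CD8 T cells, so that the place of Treg there holds for the sums only. The pDC had ER sums of 5104, 4531 and 3254 CPM at D0, D5 and D19. Plasma cells, of which each library held 45 or 46, had 5130, 2645 and 3441 CPM, above pDC at D0 and D19. The 47 cDC1 of D5 had 4690 CPM, and the 34 stromal cells of D5 had 5547 CPM, both above pDC. These groups had under 50 cells and are not in the folds. The cDC2 of D0, the monocytes or macrophages of D5 and the stromal and cycling cells of D19 had 50 or more and were not among the lineages compared either, and the cycling cells of D19 had a cytosolic sum of 5025 CPM, above the 3217 CPM of Treg. Mature DC had ER sums of 1745, 1396 and 1332 CPM, above the lowest lineage of each library. That was CD4 T cells at D0 (1487 CPM) and CD8 T cells at D5 and D19 (1204 and 834 CPM). Xbp1 was at 270, 286 and 273 CPM in pDC and at 430, 178 and 376 CPM in plasma cells.

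UMIs of Hspa1a and Hspa1b were counted in a share of the cells that differed between arms. With each cell thinned to 1000 UMIs, the share of γδ T-like cells with a UMI of Hspa1a or Hspa1b was 15.9% in liver D0, 11.6% in D5, 4.94% in D9, 3.88% in D19, 14.98% in STOP and 2.97% in D5-DT. In the LN arms it was 0% to 3.15%, with 0 of 423 cells in D19, which allows a share of up to 0.709% with a UMI at this thinned depth and says nothing of cells that express the genes at a lower level. The free RNA of the liver pools held 90.3 CPM of Hspa1a for D0, D5 and D9 and 59.8 CPM for D19 and STOP, above the level in cells of D9 (23.8 CPM) and D19 (23.5 CPM). The part of free RNA in these low shares was not tested. In Scart1, Scart2 and type 1 cells of liver STOP Hspa1a was at 88.0, 162 and 178 CPM. In other cells, with a median of 1350 UMIs a cell, it was at 358 CPM. In liver D0 it was at 444 CPM in the 50 Scart2 cells and 52.7 CPM in the 123 Scart1 cells.

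In the CITE-seq libraries the share was highest at D0. The share of cells with a UMI of Hspa1a or Hspa1b was 26.4% at D0, 4.33% at D5 and 0.314% at D19, with median depths of 4754, 4812 and 3249 UMIs. In a cluster of the same D0 library led by hemoglobin genes it was 4.17%, at a median of 6777 UMIs. At D0 it was 47.3% of mature DC, 31.5% of B cells and 14.5% of Treg. Hspa1a was at 648 CPM in B cells at D0, and 0 of its UMIs were found there at D19, which is at least 943-fold lower against a floor of 3 counts. The same bound was 308-fold in CD8 T cells and 53.5-fold to 74.2-fold in Treg, NK and type 17 T cells, and it depends on how many UMIs a lineage had at D19. Free RNA of the D0 library held 463 CPM of Hspa1a, close to the 453 CPM of every cell. It held 511 CPM of Hspa1b, above the level in every cell given earlier. At D5 and D19 free RNA held 39.8 and 2.32 CPM of Hspa1a, and 53.0 and 5.80 CPM of Hspa1b. The part of free RNA in the shares and bounds above was not tested.

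Cells with a UMI of Hspa1a or Hspa1b had more of the other cytosolic genes in 5 of 6 liver arms. In liver D0 the other 16 cytosolic genes were 0.45 higher in such cells (interval 0.32 to 0.58), in liver D5 0.37 (interval 0.31 to 0.43) and in liver STOP 0.24 (interval 0.16 to 0.32). The values were 0.21 (interval 0.11 to 0.31) in D19, 0.25 (interval 0.04 to 0.45) in D5-DT and 0.10 (interval -0.03 to 0.23) in D9, and 0.24 (interval 0.10 to 0.38) in LN D5. In liver D0, D5 and STOP the ER genes differed by -0.17 (interval -0.35 to 0.00), 0.02 (interval -0.06 to 0.11) and -0.34 (interval -0.43 to -0.25), and in liver D9, D19 and D5-DT and in LN D5 by -0.17 to -0.02 with intervals that held 0. Within liver D5 the other cytosolic genes were 0.27 higher in type 1, 0.37 in Scart2 and 0.47 in other cells. They were 0.31 higher in Scart1 cells of STOP. In D19 the values were 0.14 (interval -0.03 to 0.30) in Scart1 and 0.23 in Scart2 cells. The ER difference was -0.23 (interval -0.36 to -0.11) in Scart1 cells of STOP. In these subsets of D5 and D19 its intervals held 0. In every cell of the D0 CITE-seq library both the other cytosolic and the ER genes were higher, by 0.57 (interval 0.54 to 0.59) and 0.24 (interval 0.19 to 0.29), but the values differed within lineages. The other cytosolic genes were higher by 0.37 in CD4 T cells to 0.74 in pDC, and in mature DC the difference was -0.03 (interval -0.16 to 0.11). The ER difference was -0.01 in CD4 T, -0.05 in NK, 0.13 in CD8 T cells and 0.11 in cDC1, all with intervals that held 0, and 0.11 in B cells, 0.24 in pDC and 0.25 in mature DC. All cells were thinned to 1 depth first.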

How the data were processed

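The authors deposited raw UMI counts per gene and barcode, and counts of antibody tags, for 8 units. Per the labels, libraries were made with Chromium 3' chemistry and processed with Cell Ranger on mm10. No barcode had been removed, so cells were selected here. Cells had 1000 or more RNA UMIs and at most 10% mitochondrial UMIs, and the barcodes with the highest Scrublet scores were left out as doublets, at 0.8% per 1000 cells of a lane. In the pools the top hashtag needed 10 UMIs and 3 times the next. Cells were clustered with scanpy 1.11.5 and leidenalg 0.10.2 (2000 variable genes, 30 components, 15 neighbours, resolution 1) without the 36 genes, and named from fixed markers. The other cytosolic chaperone and ER genes, the targets of Atf4 and mitochondrial genes were left out of the clustering too. Since none of the files used here gave cell types, names may differ from those of the study. Counts were summed per arm and subset with 50 or more cells for a comparison or a fold between subsets (20 for a single level). Of the 2 gene IDs named Ddit3, the one with more UMIs was used. The 36 genes and all other lists were chosen with earlier results of these data known. All 36 genes could be named, 10 were given in each comparison of all cells (Hspa1a, Hspa1b, Hsph1, Hsp90aa1, Hspa8, Hspa5, Hsp90b1, Sdf2l1, Xbp1 and Ddit3), and for each comparison those with the largest rises and falls were added. Medians, counts and intervals were computed with numpy 2.4.6, scipy 1.17.1 and pandas 2.3.3. The count of changed genes was tested on simulated data, where of 200 genes changed 2.5-fold 100% were recovered for liver STOP against D19 and 98% for LN STOP against D19, with 0% and 0.142% of unchanged genes called. Both simulated arms were drawn from 1 shared profile with counting noise only. These shares therefore do not cover differences between mice, handling or subsets, and are not rates of false calls between real arms. Promoter sequences came from RefSeq (GRCm38.p6). Alternatives varied the cell, hashtag and gene filters, the added CPM, the scaling, free RNA, the clustering and the mix of subsets. A few alternatives were added after seeing the data.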

Additional observations from a re-analysis of the deposited data

How the results depend on the processing

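No paired analysis was possible because each condition was 1 arm or library and no test was made. Of 228 alternative values for 20 counts of the 36 genes, 214 stayed within 1.5 times the main count and 14 moved. These counts take both directions together, so a reversal was not scored for them. For liver D5 against D0 the cytosolic count went from 0 to 1 with the stricter hashtag rule, with 1 CPM added and with free RNA subtracted. For LN D5 against D0 the ER count went from 1 to 0 with subsets taken from gates on marker UMIs. For liver D5-DT against D5 the ER count went from 0 to 1 at 5% mitochondrial UMIs and with 1 CPM added. For LN D5-DT against D5 the cytosolic count went from 2 to 1 at 5% mitochondrial UMIs, and the ER count from 0 to 1 with 1 CPM added or centring on the median. For D5-DT liver against LN the cytosolic count went from 0 to 2 without the filter on low genes, and the ER count from 2 to 4 with 1 CPM added or free RNA subtracted, to 6 with such gates, and to 5 in named subsets only, an alternative chosen after seeing the data. With equal weight for each subset, the log2 ratios of the cytosolic and ER sums became -0.036 and -0.24 for liver D5 against D0, -0.17 and -0.24 for liver D9 against D5, 0.67 and 1.08 for liver STOP against D19, 0.87 and 0.84 for LN STOP against D19, -0.43 and -0.20 for liver D5-DT against D5, and 0.041 (in place of -0.09) and 0.30 for D5-DT liver against LN, and that of the ER sum -0.20 for LN D5 against D0. Of 16 such ratios, 13 left their counting interval and 3 stayed inside it. With the same weights the count of genes past 1.5-fold went from 2 to 0 for the ER genes of D5-DT liver against LN, from 1 to 0 for the ER genes of liver D9 against D5, from 0 to 1 for the cytosolic genes of liver D5 against D0 and from 2 to 1 for those of LN D5-DT against D5. Of 960 values for single genes 735 stayed within their interval, 225 moved and 0 reversed, where only genes past 1.5-fold could be scored as reversed. The causes were not tested. The depth limited LN D19 and STOP most, with 423 and 444 cells.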
